A study of Mus musculus with 6 samples.

Results

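The genes described here are 36 mouse genes of the unfolded protein response (UPR) and of the ATF4 stress pathway, among 19938 genes measured on the arrays. They were chosen from a list of symbols, by what the genes are known to do, and the rule used no measured value. A probe counted only where its annotation gave exactly 1 gene symbol, and where a gene had several probes the brightest over the 6 arrays stood for it. All 36 genes were measured, 34 by 1 probe and 2, Pdia4 and Dnajc3, by 2 probes.

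The cells were N2A, a mouse neuroblastoma line, and the question was how the transcriptome differed when Pbcas4, a pseudogene transcript, was targeted by RNA interference. In 3 samples the cells had received a construct encoding an shRNA against Pbcas4, driven by a U6 promoter. In 3 others they had received a scramble construct, which carried a permuted hairpin with no close match to mouse mRNAs. Cells of both groups were plated 24 h before a transient transfection and harvested 72 h after it. The share of cells that took up a construct is not given in the sources used here. Labeled single-stranded DNA made from the RNA was hybridized to Affymetrix Mouse Gene 1.0 ST arrays. The values are normalized log2 expression, 1 value per probe and array. The probe annotation used here did not name Pbcas4, so its level could not be checked on these arrays. The study's methods report that quantitative PCR showed a reproducible but partial decrease of Pbcas4 after transfection of the shRNA.

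When unfolded proteins build up in the endoplasmic reticulum (ER), 3 membrane sensors respond: IRE1 (encoded by Ern1), ATF6 and PERK (encoded by Eif2ak3). IRE1 splices the Xbp1 mRNA, and XBP1 and ATF6 raise the transcription of ER chaperones and of the machinery that removes misfolded proteins. PERK phosphorylates the translation factor eIF2α, which favours translation of Atf4, and ATF4 then induces stress factors and genes for making and importing amino acids. Other kinases also phosphorylate eIF2α, for instance when amino acids are scarce, so ATF4 targets can respond without the ER branch. These arrays read transcript levels only, so neither Xbp1 splicing, eIF2α phosphorylation nor any protein was measured, and in such bulk samples fewer cells of a type and less RNA per cell cannot be told apart.

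Array medians lay between 7.75 and 7.86. Over all probes, the correlation of scramble replicate 1 was 0.990 to 0.993 with shRNA arrays but 0.987 to 0.988 with scramble replicates 2 and 3. Of 10 neuroblastoma markers, 8 were measured, at 8.48 to 13.79, and Th, Dbh and Chgb among them were lower in shRNA arrays at an unadjusted p under 0.05 in limma. The 7 fibroblast markers were between 4.51 and 8.73, of which Pdgfra passed the same threshold with a higher value in shRNA arrays (0.55 ± 0.14), and the 6 macrophage markers measured were between 5.62 and 8.45. The 17 mitosis genes averaged 11.95, 11.86 and 11.79 across shRNA replicates, against 11.83, 11.05 and 10.67 across scramble replicates, so scramble replicate 1 again sat with the shRNA arrays. Of these 17, 9 (52.9%) passed the same threshold, all higher in shRNA arrays, against 11.7% of all genes in either direction. The share passing was 37.5% of the neuroblastoma, 14.3% of the fibroblast and 0.0% of the macrophage markers. The part of these features in the results below was not tested.

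The best known promoter sequence of the ER branch is the ER stress response element (ERSE), where the factor NF-Y binds one end and ATF6 or XBP1 the other. It was searched on both strands as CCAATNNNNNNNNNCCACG in RefSeq promoter windows (GRCm38.p6, 250 bases before to 50 after the gene start), which were at hand for 32 of the 36 genes. It occurred in 6 of these 32 genes, against 0.119% of all 32851 windows. The 32 genes had 35 windows, so a share of genes is set here beside a share of windows. The genes were chosen for their known part in this response. A share above that of all windows therefore follows from the choice and is no separate support, here and for the other elements below. The matches are shown only to describe the genes. They are written along the gene, with 10 bases on each side and the fixed letters in capitals, and where the element lies on the opposite strand the capitals read CGTGG and ATTGG. The number of bases between the first letter of the element and the gene start was 65 in Hspa5 (chr2:34772025-34772043), 212 in Hsp90b1 (chr10:86705638-86705656), 107 in Hsp90b1 (chr10:86705533-86705551), 98 in Pdia6 (chr12:17266491-17266509), 105 in Dnajc3 (chr14:118937827-118937845), 126 in Creld2 (chr15:88819520-88819538) and 44 in Syvn1 (chr19:6046532-6046550).
Hspa5: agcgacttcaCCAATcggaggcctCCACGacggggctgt
Hsp90b1, distal: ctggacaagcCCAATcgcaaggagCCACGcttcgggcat
Hsp90b1, proximal: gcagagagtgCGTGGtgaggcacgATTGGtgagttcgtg
Pdia6: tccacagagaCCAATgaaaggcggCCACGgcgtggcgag
Dnajc3: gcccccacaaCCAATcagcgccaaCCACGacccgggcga
Creld2: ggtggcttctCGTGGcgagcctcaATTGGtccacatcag
Syvn1: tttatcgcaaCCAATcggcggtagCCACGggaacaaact

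A shorter relative, ERSE-II, was searched as ATTGGNCCACG and occurred in 2 of the 32 genes and in 0.0365% of all windows.
Herpud1: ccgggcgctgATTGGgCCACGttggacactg
Dnajb11: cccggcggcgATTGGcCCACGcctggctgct

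For ATF4 itself, the core of the C/EBP-ATF response element was searched as TGATGNAA, added only after the longer TGATGNAAT had matched 0 members. The shorter core occurred in 7 of the 32 genes, against 3.97% of all windows, and its count was not set beforehand. These were Asns, Atf3, Chac1, Herpud1, Slc7a11, Trib3 and Vldlr. Slc7a11 held 2 copies, on opposite strands, and Asns held 1.
Slc7a11, distal: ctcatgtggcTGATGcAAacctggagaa
Slc7a11, proximal: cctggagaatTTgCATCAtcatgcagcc
Asns: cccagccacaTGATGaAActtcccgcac

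The longer form TGATGNAAT occurred in 0 of the 32 genes and in 0.965% of all windows. The core of a further UPR element, TGACGTGG, was found in 0 of the 32 and 0.676% of all windows, and the cyclic AMP element TGACGTCA in 1, Ppp1r15a, and 1.79%. A match describes these letters only, and it does not show that a factor binds there.

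Taken as a set, the 36 genes were close to all genes in how far the constructs differed. Calls required a Benjamini-Hochberg adjusted p below 0.05 in limma together with a log2 difference, shRNA minus scramble, over 0.5 in size. With these criteria 0 of the 36 were called, as were 0 of all 19938 genes (0%). At an unadjusted p under 0.05 in limma, 3 of the 36 (8.33%) passed, against 11.7% of all genes. They were Syvn1 and Xbp1, lower in shRNA arrays, and Atf5, higher. The 3 arrays of one construct lay wholly apart from those of the other for 4 of the 36 (11.1%), the same 3 genes and Shmt2, against 16.8% of all genes. The log2 difference exceeded 0.5 in size in 1 gene, Syvn1, against 5.48% of all genes.

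Means were higher in shRNA arrays for 20 of the 36 and lower for 16, where 51.0% of all genes were higher. The median log2 difference was 0.0042 over the 36 and 0.0031 over all genes, and the median size of the difference was 0.097 and 0.10. For 33 of the 36 the difference was under 0.25 in size. The 95% interval lay within 0.5 on either side of 0 for 21 genes, so a change past the size criterion was outside the interval for these, and for the other 15 it reached further.

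**Figure D1:**
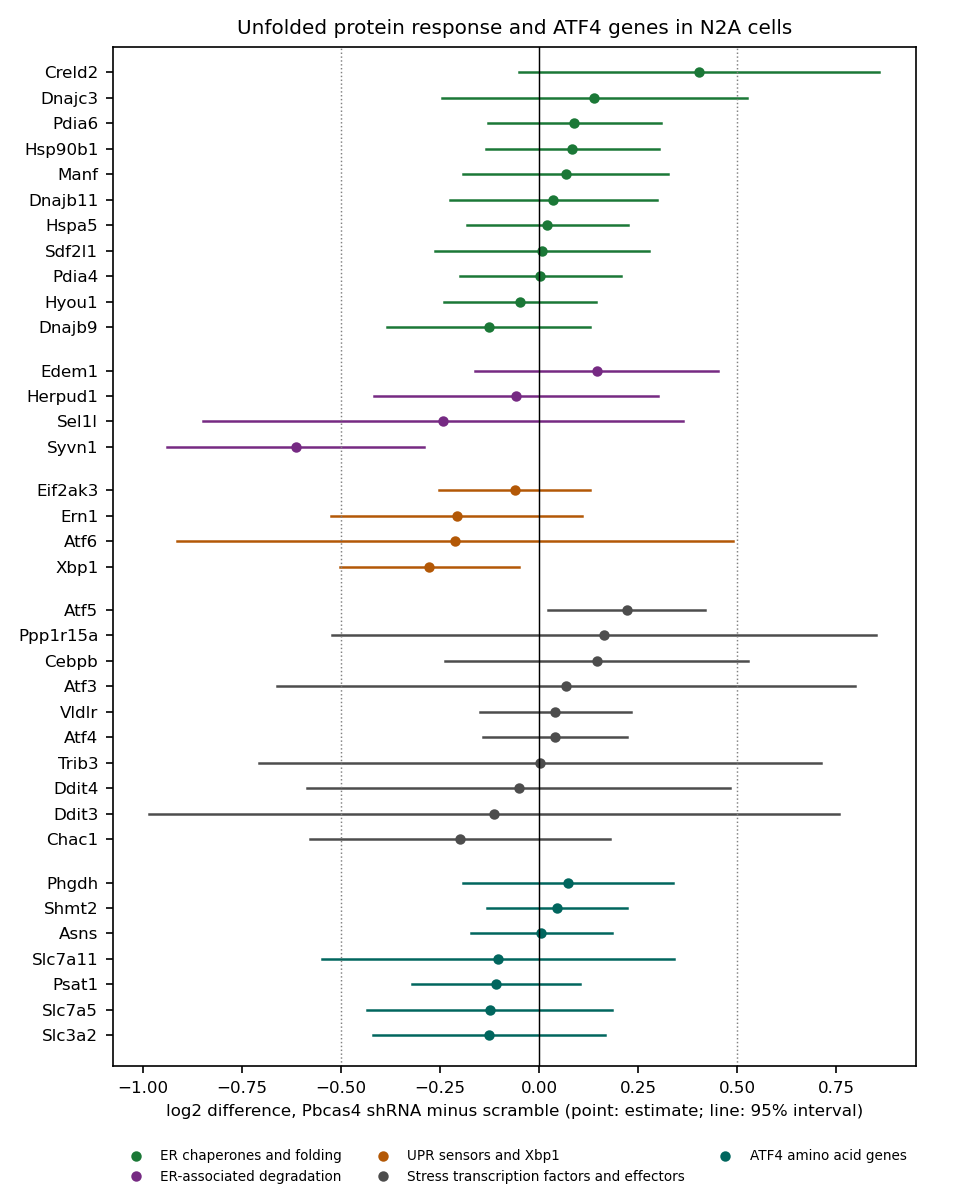
Log2 difference (Pbcas4 shRNA minus scramble, x axis) of each of the 36 genes, grouped by role. Points are the estimates, lines the 95% intervals from limma, and dotted lines mark 0.5 on either side of 0; Syvn1, Xbp1 and Atf5 are the 3 genes whose interval leaves out 0.

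The ER chaperones and folding factors hardly differed between constructs. Of the 11 genes, 9 (81.8%) had a higher mean in shRNA arrays and 2 a lower one, where 51.0% of all genes were higher. The median log2 difference was 0.036, and 0 of 11 passed the unadjusted threshold, against 11.7% of all genes. The median was -0.0098 without scramble replicate 3 and 0.11 without scramble replicate 1. Hspa5, which encodes BiP, the main ER chaperone and the classical UPR readout, was at 13.68, 13.78 and 13.71 in shRNA arrays, against 13.63, 13.69 and 13.79 in scramble arrays. All 6 values fell within 0.16 of each other and the groups overlapped. The difference was 0.021 (95% interval -0.18 to 0.23, adjusted p = 0.977 in limma).

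Hsp90b1, the ER member of the HSP90 family, had a log2 difference of 0.084 ± 0.091 (SE). The disulfide isomerases Pdia6 and Pdia4 had differences of 0.089 ± 0.092 and 0.003 ± 0.085. Hyou1, a nucleotide exchange factor for BiP, had a lower mean (-0.048 ± 0.080), and Sdf2l1, a partner of BiP complexes, differed by 0.008 ± 0.11. Manf, a secreted stress-induced factor, differed by 0.067 ± 0.11. None of these 6 differences exceeded its SE.

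The J-domain proteins, which recruit BiP to its clients, did not move as one. Dnajb11 differed by 0.036 ± 0.11 and Dnajc3, also known as an inhibitor of eIF2α kinases, by 0.14 ± 0.16, whereas Dnajb9 had a lower mean (-0.13 ± 0.11). The pair of Dnajc3 probes held identical values on all 6 arrays and counted once. The dimmer Pdia4 probe gave a difference of -0.16 ± 0.17.

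Creld2, an ER-resident factor induced by ER stress, had the largest difference among the chaperone group. It was at 12.62, 12.57 and 12.64 in shRNA arrays, against 12.62, 12.14 and 11.85 in scramble arrays. The shRNA arrays were tightly grouped, scramble replicate 1 sat among them, and the other scramble arrays were lower. The difference was 0.40 ± 0.19 (SE), 1.32-fold, with an adjusted p of 0.543 in limma. Without scramble replicate 1 it was 0.61 (adjusted p = 0.0791 in limma), and without scramble replicate 3 it was 0.23 (adjusted p = 0.950 in limma). Among scramble arrays, replicate 1 was the highest and replicate 3 the lowest, as in the mitosis means given above. The chaperone means had this scramble order too, at 12.29, 12.14 and 12.07, so it was not particular to Creld2. The shRNA arrays did not share an order, since replicate 3 was the highest for Creld2 and the lowest for the mitosis means. The share of all genes with this order was not counted, and its cause was not tested.

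ER-associated degradation (ERAD) sends misfolded proteins out of the ER to the proteasome. Among its 4 genes, 1 (25.0%) had a higher mean and 3 a lower one, where 51.0% of all genes were higher, and the median was -0.15. Without scramble replicate 1 the median was -0.32, without shRNA replicate 1 it was -0.0080 and without scramble replicate 3 it was 0.0052. Syvn1 encodes HRD1, the ubiquitin ligase at the centre of the main ERAD complex, and it differed more than any other of the 36 genes. It was at 10.01, 10.15 and 10.09 in shRNA arrays, against 10.44, 10.73 and 10.92 in scramble arrays. Every shRNA array was below every scramble array. The difference was -0.62 ± 0.14 (SE; 95% interval -0.94 to -0.29), a ratio of 0.653 of shRNA over scramble.

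The Syvn1 difference did not pass adjustment over all probes (adjusted p = 0.359 in limma), and an exact permutation test over the arrays (two-sided) returned p = 0.1, the smallest possible with 3 arrays against 3. Compared by replicate number, it was -0.44, -0.58 and -0.83. Left-out arrays kept it between -0.50 (without scramble replicate 3) and -0.74 (without scramble replicate 1). With array weights it was -0.66 and passed (adjusted p = 0.0172 in limma), as did Creld2 at 0.51 (adjusted p = 0.0363 in limma), in a fit that called 1980 probes in all and whose weights had not converged.

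Of the ERAD group, Syvn1 held an ERSE match and Herpud1 an ERSE-II match. Its 250 bases before the gene start, chr19:6046326-6046575 on the plus strand of GRCm38.p6, are shown because it was the gene that differed most, with the element in capitals 44 bases before the start.
Syvn1 upstream: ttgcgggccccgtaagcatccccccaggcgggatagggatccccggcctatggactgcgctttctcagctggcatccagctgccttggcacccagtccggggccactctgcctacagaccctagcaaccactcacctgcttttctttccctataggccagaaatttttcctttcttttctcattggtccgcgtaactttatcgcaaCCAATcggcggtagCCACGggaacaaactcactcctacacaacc

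The other 3 genes of the group overlapped between constructs. Sel1l, the adaptor that holds HRD1 in its complex, was at 11.66, 12.32 and 12.19 in shRNA arrays and 11.86, 12.36 and 12.68 in scramble arrays, a difference of -0.24 ± 0.25 with overlapping groups. Herpud1, which helps assemble that complex, differed by -0.058 ± 0.15. Edem1, a lectin-like factor that hands misfolded glycoproteins to ERAD, had a higher mean by 0.15 ± 0.13. Of the 6 genes with an ERSE match, 5 had a higher mean in shRNA arrays, between 0.021 for Hspa5 and 0.40 for Creld2, and 1, Syvn1, had a lower one.

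All 4 genes of the sensor group, Ern1, Atf6, Eif2ak3 and Xbp1, had a lower mean in shRNA arrays, where 51.0% of all genes were higher. Their median was -0.21, and 1 of the 4 (25.0%) passed the unadjusted threshold, against 11.7% of all genes. Xbp1, the transcription factor that IRE1 activates, was at 12.40, 12.56 and 12.63 in shRNA arrays, against 12.76, 12.79 and 12.87 in scramble arrays. The highest shRNA array was below the lowest scramble array. The difference was -0.28 ± 0.094 (SE; 95% interval -0.50 to -0.05, a ratio of 0.825), with an adjusted p of 0.431 in limma and an exact permutation p of 0.1. By replicate number it was -0.36, -0.23 and -0.24.

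The 3 sensors overlapped between constructs. Ern1 differed by -0.21 ± 0.13 and Eif2ak3 by -0.062 ± 0.080. Atf6 differed by -0.21 ± 0.29, and its values were spread widely within each construct, at 11.47, 12.47 and 12.25 in shRNA arrays and 11.89, 12.34 and 12.59 in scramble arrays. Left-out arrays moved the Atf6 difference between -0.42 and 0.082, and it was positive without shRNA replicate 1.

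**Figure D2:**
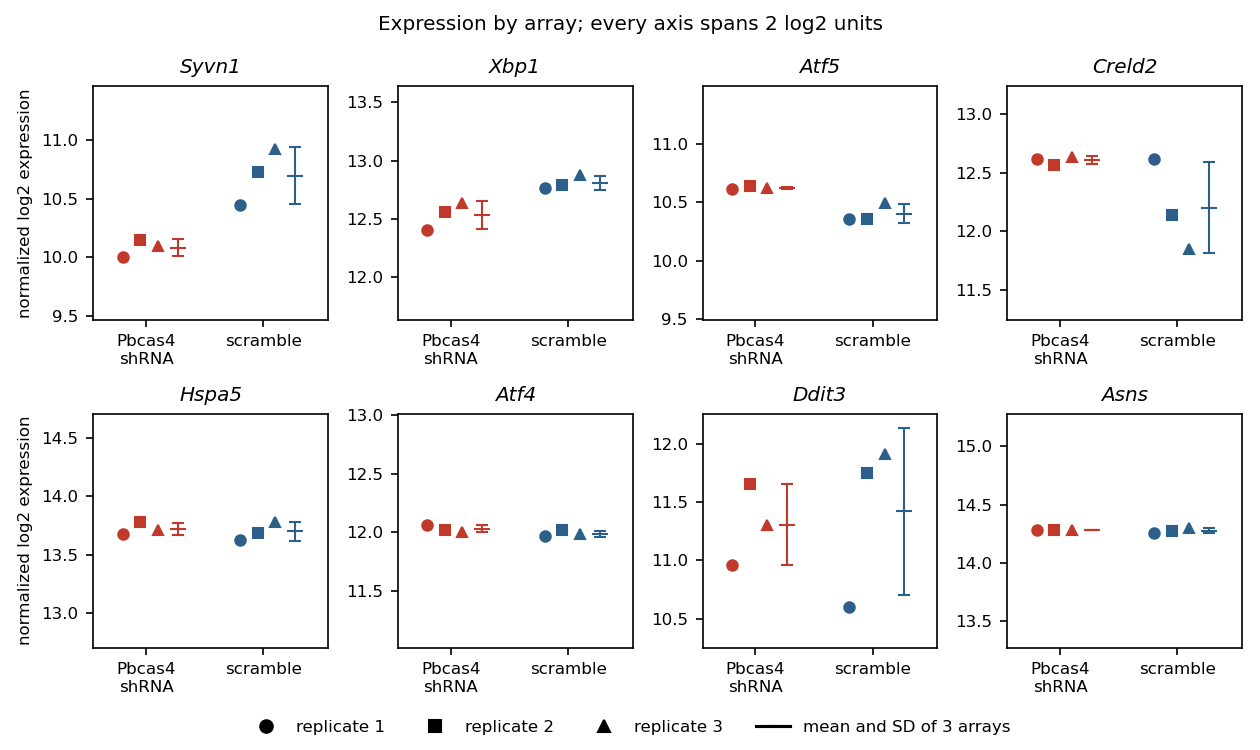
Normalized log2 expression (y axis) of 8 genes in the 3 Pbcas4 shRNA arrays (left, red) and the 3 scramble arrays (right, blue) of each panel. Marker shapes give the replicate number, bars the mean and SD of 3 arrays, and every axis spans 2 log2 units; Syvn1, Xbp1 and Atf5 do not overlap between constructs, Hspa5, Atf4 and Asns are nearly level, and Ddit3 is spread widely within both.

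In the group of 10 stress transcription factors and effectors, 7 had a higher mean in shRNA arrays and 3 a lower one, with a median of 0.041, and 1 passed the unadjusted threshold. The median was -0.16 without scramble replicate 1 and 0.18 without scramble replicate 3. Atf4, the hub of this pathway, was at 12.06, 12.02 and 12.01 in shRNA arrays, against 11.97, 12.02 and 11.98 in scramble arrays. The 6 values lay within 0.094 of each other and the groups overlapped. The difference was 0.041 (95% interval -0.14 to 0.22). ATF4 is controlled largely in translation, which these arrays do not read.

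Atf5, a relative of Atf4 that is also controlled in translation, was at 10.61, 10.63 and 10.62 in shRNA arrays, against 10.35, 10.36 and 10.50 in scramble arrays. The shRNA arrays were all higher and nearly equal. The difference was 0.22 ± 0.083 (SE), 1.17-fold, with an adjusted p of 0.461 in limma and an exact permutation p of 0.1. It was 0.26, 0.28 and 0.12 by replicate number. With the replicate number as a block Atf5 no longer passed the unadjusted threshold (adjusted p = 0.439 in limma).

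Ddit3 encodes CHOP, the stress factor linked to cell death when the UPR persists. It was at 10.96, 11.66 and 11.30 in shRNA arrays, against 10.60, 11.75 and 11.91 in scramble arrays. It had the widest range of the 36 genes, 1.31, with the array numbered 1 the lowest of each construct. The difference was -0.11 with a 95% interval of -0.98 to 0.76, so changes well past the size criterion in either direction lay inside the interval. Without scramble replicate 1 it was -0.52 (adjusted p = 0.282 in limma), and leaving out shRNA replicate 1, or either of scramble replicates 2 and 3, made it positive.

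Other targets of this branch also varied between arrays of one construct. Atf3, an early stress factor, differed by 0.068 ± 0.31. Trib3, a pseudokinase that damps ATF4 and CHOP, differed by 0.0016 ± 0.30, and Ppp1r15a, the phosphatase subunit that reverses eIF2α phosphorylation, by 0.16 ± 0.29. Ddit4, an inhibitor of mTORC1, differed by -0.051 ± 0.22. For these 4 the SE was larger than the difference.

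Chac1, an enzyme that breaks down glutathione, had a lower mean by -0.20 ± 0.16. Cebpb, a C/EBP transcription factor, had a higher mean by 0.15 ± 0.16. Vldlr, a lipoprotein receptor reported as an ATF4 target, differed by 0.041 ± 0.080, at 6.53 to 6.63 on all arrays, below the median of all probe means (7.83), the only one of the 36 that the filter on dim probes removed.

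The 7 amino acid genes differed little, 3 (42.9%) with a higher mean and 4 with a lower one, where 51.0% of all genes were higher. Their median was -0.10, and 0 of 7 passed the unadjusted threshold, against 11.7% of all genes. The median was 0.0073 without shRNA replicate 1, 0.016 without scramble replicate 3 and -0.023 without both arrays numbered 1. Asns, asparagine synthetase and the most used readout of ATF4 activity, was at 14.28, 14.28 and 14.28 in shRNA arrays, against 14.26, 14.27 and 14.30 in scramble arrays. It had the narrowest range of the 36 genes, 0.043, and overlapped between constructs. The difference was 0.005 (95% interval -0.17 to 0.18). These values are high on the scale of the table, whose highest value was 14.97.

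In the serine pathway, Psat1, an aminotransferase, had a lower mean by -0.11 ± 0.088 and Phgdh, which opens the pathway, a higher one by 0.072 ± 0.11. Shmt2, the mitochondrial enzyme that converts serine to glycine, was at 13.54, 13.53 and 13.54 in shRNA arrays, against 13.48, 13.49 and 13.49 in scramble arrays. The constructs did not overlap, yet the difference was only 0.045 ± 0.074 (adjusted p = 0.927 in limma). In limma the spread of a gene is moderated towards that of all probes. The 3 transporter genes all had lower means, Slc7a11 (the cystine carrier) by -0.10 ± 0.19, Slc7a5 (the large neutral amino acid carrier) by -0.12 ± 0.13 and Slc3a2 (the shared heavy chain of both) by -0.13 ± 0.12.

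The chaperone and amino acid groups were set side by side within each array. The chaperone mean minus the amino acid mean was -1.06, -1.21 and -1.22 in shRNA arrays and -1.06, -1.30 and -1.46 in scramble arrays. That is -1.16 ± 0.09 for shRNA and -1.27 ± 0.20 for scramble (SD, n = 3 each), and the constructs overlapped. Only the difference between arrays is of interest in this measure, since its level compares different probes. The chaperone means were 12.23, 12.24 and 12.20 in shRNA arrays and 12.29, 12.14 and 12.07 in scramble arrays. The amino acid means were 13.29, 13.45 and 13.42 in shRNA arrays and 13.35, 13.43 and 13.53 in scramble arrays.

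**Figure D3:**
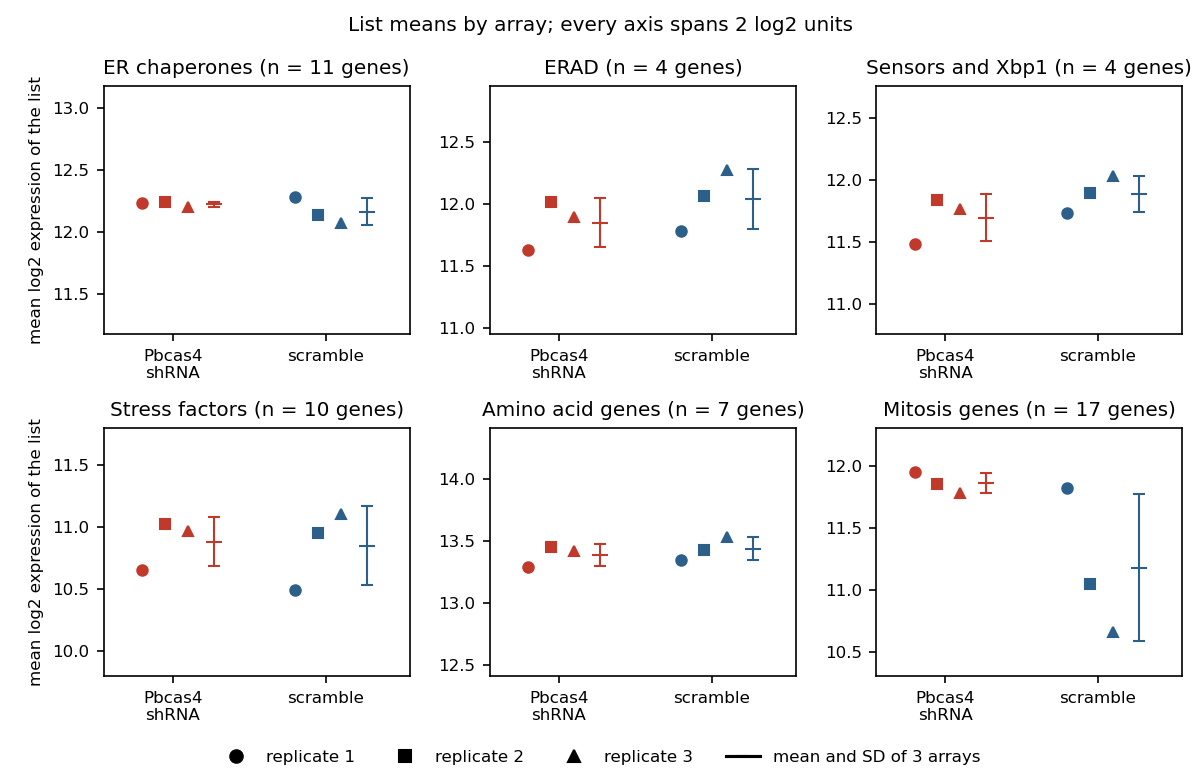
Mean log2 expression (y axis) of each group of genes and of 17 mitosis genes in the 3 Pbcas4 shRNA arrays (left, red) and the 3 scramble arrays (right, blue). Marker shapes give the replicate number, bars the mean and SD of 3 arrays, and every axis spans 2 log2 units; the 5 groups overlap between constructs, and in the mitosis genes scramble replicate 1 lies with the shRNA arrays.

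The clearest pattern among the 36 genes ran across the replicate numbers, not across the constructs. In 20 of the 36 (55.6%) the array numbered 1 was the lowest of its construct in both constructs, against 19.3% of all genes. For the arrays numbered 2 and 3 this held for 0 and 3 (8.33%) of the 36, against 10.8% and 8.66% of all genes. The count was made after the values had been seen. By role it was 4 of 4 ERAD genes, 3 of 4 in the sensor group, 8 of 10 stress factors and effectors and 4 of 7 amino acid genes, but 1 of 11 chaperones. No minimum gap was set. For Atf5, which is counted, the array numbered 1 differed from the mean of the other 2 by -0.014 in shRNA and -0.073 in scramble.

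The gap was wide in several stress genes, in Atf6 and in Sel1l. Ddit3 in the array numbered 1 was 0.51 below the mean of the other 2 shRNA arrays and 1.23 below that of the other 2 scramble arrays. Atf3 was lower by 0.73 in shRNA and 0.87 in scramble, Trib3 by 0.53 and 0.89, and Ppp1r15a by 0.54 and 0.80. Atf6 was lower by 0.88 in shRNA and 0.57 in scramble, and Sel1l by 0.59 and 0.66. Atf4 itself did not share this order, since shRNA replicate 1 was the highest shRNA array. In the mitosis genes the array numbered 1 was the lowest of both constructs in 0 of 17, against 19.3% of all genes. It was the highest of both in 10 of 17 (58.8%), against 18.6% of all genes. The cause of this pattern was not tested, and neither the labels nor the methods say what the replicate numbers stand for.

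**Figure D4:**
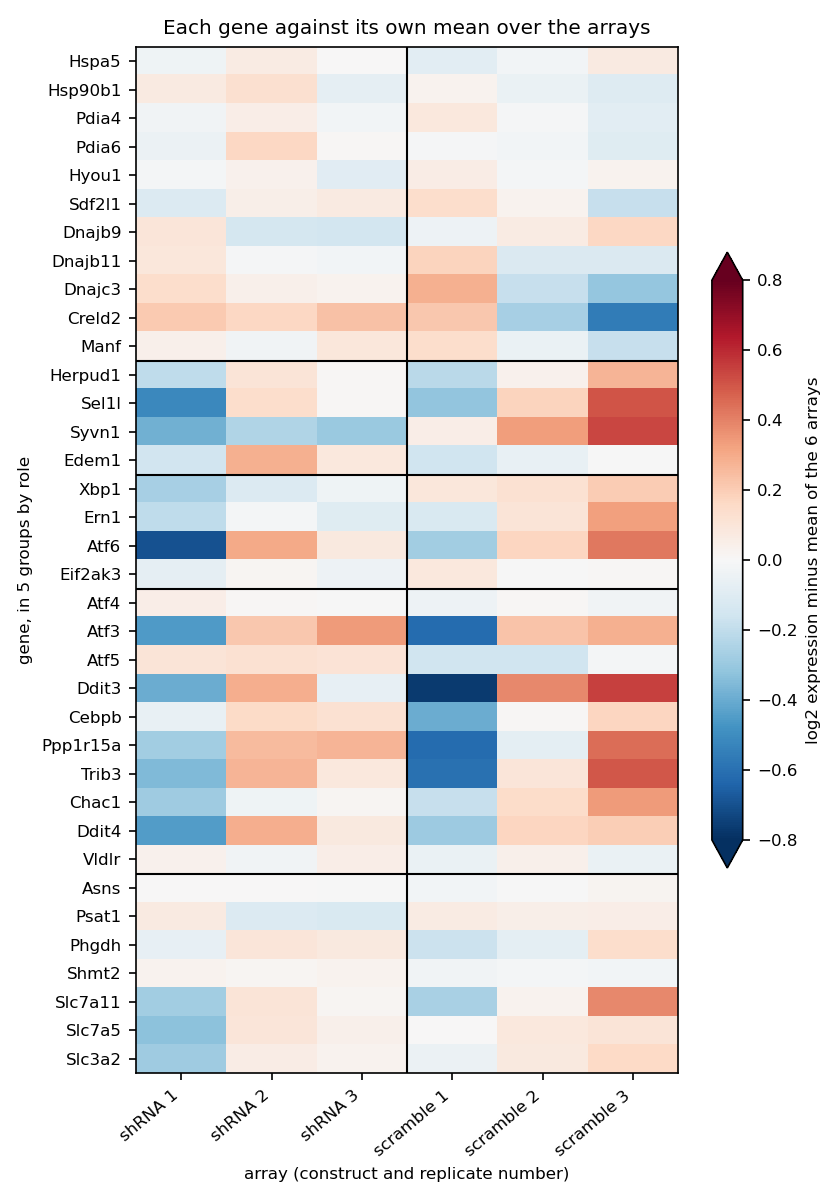
Log2 expression of the 36 genes (y axis, in 5 groups by role) in the 6 arrays (x axis, Pbcas4 shRNA left of scramble), each gene minus its own mean over the arrays; red is above and blue below that mean. The arrays numbered 1 are blue for most stress and ERAD genes in both constructs and not for most of the chaperones. In the sensor group Ern1 and Atf6 are blue in both, while Xbp1 and Eif2ak3 are red in scramble replicate 1, as is Syvn1 of the ERAD genes.

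Further genes of these pathways were read from 5 lists, in which 95 of 109 symbols were measured, and 0 were called. Of 28 other folding and translocation genes, 1 (3.57%) passed the unadjusted threshold, against 11.7% of all genes. The gene was Pdia5, a further disulfide isomerase. It averaged 11.35 ± 0.31 in shRNA arrays and 10.86 ± 0.045 in scramble arrays (SD, n = 3 each), a difference of 0.49 ± 0.16 (adjusted p = 0.431 in limma). Of 15 other ERAD genes, 2 (13.3%) passed the unadjusted threshold, near the 11.7% of all genes that passed in either direction. Both were lower in shRNA arrays, where 5.46% of all genes passed and were lower. The shRNA arrays lay wholly below the scramble arrays for 5 of the 15 (33.3%), against 7.63% of all genes. In either direction the constructs lay wholly apart for the same 33.3% of these genes and for 16.8% of all genes. In each other pathway list that share was at most 13.6%, below that of all genes. The ERAD list was therefore the highest of the 5, and this measure was chosen with results known. Os9, the lectin that works with SEL1L and HRD1, was at 11.15, 11.21 and 11.04 in shRNA arrays and 11.51, 11.67 and 11.63 in scramble arrays. Its difference was -0.47 ± 0.091 (adjusted p = 0.348 in limma), and that of Faf2, which recruits the extraction machinery to ERAD sites, was -0.32 ± 0.096 (adjusted p = 0.409 in limma).

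Of 20 other transducers of eIF2α and UPR signalling, 1 (5.0%) passed the unadjusted threshold, against 11.7% of all genes. The gene was the stress regulator Nupr1 (0.30 ± 0.12). Of 22 other amino acid enzymes and transporters, 2 (9.09%) passed that threshold, both higher in shRNA arrays, again below the 11.7% of all genes. Of 10 aminoacyl-tRNA synthetases 0 did. Slc7a1, the arginine carrier, differed by 0.25 ± 0.099 and no longer passed with the replicate number as a block. With that block 10 of these 95 genes passed, against 6 without it, 5 of the 6 in both. Shmt1, the cytosolic counterpart of Shmt2, was at 11.14, 10.78 and 10.89 in shRNA arrays and 10.84, 9.67 and 9.48 in scramble arrays. The difference was 0.94 ± 0.35 (adjusted p = 0.461 in limma), and scramble replicate 1 again lay among the shRNA arrays.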

How the data were processed

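Expression was profiled in 3 Pbcas4 shRNA and 3 scramble samples on 1-colour arrays. The authors deposited log2 values, summarized per probe and normalized between arrays by a method not given in the sources used here, and the submitters' processing notes name limma, with no version. No further normalization was applied. Of 35556 probes, 21789 carried exactly 1 gene symbol, 1621 several and 12146 none, and all 36 symbols matched RefSeq by gene ID. A linear model with 1 term for the construct was fitted to every probe in limma 3.58.1 (lmFit and eBayes, R 4.3.3), and two-sided p-values were adjusted over all probes by Benjamini-Hochberg. The methods keep only probes with a variance between conditions over 0.5. This was read here as a log2 difference over 0.5. It was applied after the adjustment over all probes, not as a filter before it, so calls here can differ from the study's. The fit was also run on simulated arrays with independent noise for each probe, where the mean estimated difference lay near the planted one. Such arrays hold no pattern shared by many genes of an array, so they cannot test the effect of the array patterns described above. The p-values rest on the spread between transfections, and precision is limited by how few arrays there were.

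The members, lists, tests and alternatives were chosen with earlier results of these data known. Text names every member and, of each other pathway list, up to 4 genes with the lowest unadjusted p under 0.05. Genes described array by array were those passing that p or not overlapping and Hspa5, Xbp1, Atf4, Ddit3 and Asns, and other genes given array by array were chosen after their values were seen. The 6 promoter patterns were also chosen with results known, and TGATGNAA was added after the longer TGATGNAAT had matched no member. Arrays of the same replicate number correlated at 0.291, 0.137 and 0.103 after the construct means were removed, each over 0.1, so a fit with a block for the replicate number was run as an alternative, while the main values come from the unpaired model. This pairing comes from the data alone, and the correlation of shRNA replicate 2 was higher with scramble replicate 3 (0.199). Alternatives were quantile normalization, median centring, the replicate block, a trended and robust variance, array weights, the mean of a gene's probes, dim probes left out, no size criterion, each array left out and both arrays numbered 1 left out. Figures were drawn with matplotlib 3.10.9.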

Additional observations from a re-analysis of the deposited data

How the results depend on the processing

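The count of genes called stayed at 0 of 36 except with array weights, where it was 2 (Syvn1 and Creld2) and the weights, up to 5.32 for shRNA replicate 3, had not converged. The count at an unadjusted p under 0.05 in limma was 3, 7 with array weights, and 1 to 7 over single arrays left out: 7 without scramble replicate 1 (Dnajc3, Creld2, Syvn1, Xbp1, Ern1, Ddit3 and Chac1), and 1, Syvn1, without scramble replicate 2 or shRNA replicate 1. Xbp1 no longer passed after median centring, Atf5 after quantile normalization, and neither without both arrays numbered 1, where Dnajb9, Dnajc3 and Creld2 passed beside Syvn1. Of single arrays left out, Atf5 passed without scramble replicate 3 and no other, and Xbp1 without shRNA replicate 2, shRNA replicate 3 or scramble replicate 1 and no other, while Syvn1 passed under every alternative run. With the replicate block, which uses the pairing by number, 0 of 36 were called, Syvn1 had an adjusted p of 0.256 in limma, and 2, Syvn1 and Xbp1, passed the unadjusted threshold, without Atf5. The block changed no other pass or call among the 36, and it called 1 probe in all, against 0. In the other pathway lists it removed Slc7a1 from those passing and added Ero1a, Nploc4, Eif2b1, Creb3l2 and Slc7a3. Over single arrays left out, the median log2 difference ran from -0.0098 to 0.11 for chaperones, -0.11 to 0.016 for amino acid genes, -0.32 to 0.0052 for ERAD, -0.31 to -0.085 for the sensor group and -0.16 to 0.18 for stress factors. Without both arrays numbered 1 the amino acid median was -0.023. The sign of 16 genes turned when a single array was left out, with ranges of -0.0052 to 0.016 for Asns, -0.22 to 0.31 for Atf3, -0.42 to 0.082 for Atf6, -0.017 to 0.27 for Cebpb, -0.52 to 0.13 for Ddit3, -0.21 to 0.16 for Ddit4, -0.013 to 0.13 for Dnajb11, -0.18 to 0.063 for Herpud1, -0.015 to 0.063 for Hspa5, -0.0098 to 0.15 for Manf, -0.038 to 0.047 for Pdia4, -0.10 to 0.43 for Ppp1r15a, -0.081 to 0.080 for Sdf2l1, -0.26 to 0.063 for Slc7a11, -0.20 to 0.0073 for Slc7a5 and -0.30 to 0.25 for Trib3. Trib3 was also negative with array weights (-0.061), without both arrays numbered 1 (-0.12) and after quantile normalization (-0.0047). Without both arrays numbered 1, Ddit4 was 0.0029 and Asns -0.0055. Pdia4 was -0.076 as the mean of its probes and -0.016 after quantile normalization, and Sdf2l1 was -0.014 after quantile normalization. The filter on dim probes left 35 of the 36 genes. The cause of these changes was not tested.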
